A study of Mus musculus and Homo sapiens with 12 samples.

Results

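The genes described here, with some exceptions taken in by name, encode the subunits of the 5 mitochondrial respiratory chain complexes that are read from nuclear DNA. They were followed through chromatin-associated RNA (caRNA) and the fragments of it that an antibody against 5-methylcytosine (m5C) pulled down. Members were chosen by name alone, case ignored: protein-coding genes that begin with Ndufa, Ndufb, Ndufc, Ndufs or Ndufv and a digit, Sdha to Sdhd, and those beginning Uqcr, Cox4i to Cox8, or Atp5. Assembly factors and pseudogenes were left out. Because the rule goes by name, it also counts Atp5s, which RefSeq lists as Dmac2l, and the human joint loci NDUFC2-KCTD14 and ATP5MF-PTCD1. The rule found 85 of 54446 genes in the mouse count tables, with 37 in complex I, 4 in complex II, 8 in complex III, 18 in complex IV and 18 in complex V. It found 89 of 58721 genes in the human tables, with 39, 4, 9, 17 and 20 in the same order. By symbol, 82 mouse and human members could be set beside each other.

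Wild-type mouse embryonic stem cells (mESC), grown with LIF and inhibitors of MEK and GSK3 and passaged off their feeder cells, gave 3 Input and 3 m5C-IP libraries. Wild-type K562 cells, an established human leukaemia line of erythroid character that, per the labels, was kept in medium with puromycin, gave the same numbers. Among K562 cells, the study's methods name puromycin for the hairpin knockdown and control lines and not for wild-type cells. None of the 12 libraries came from a knockout, and no added agent separated the libraries of a line. The comparison within a line is therefore m5C-IP against Input, and the comparison between lines is of that contrast. In some libraries the label that names the antibody disagreed with the title, being empty for the mESC IP libraries and naming an m5C antibody for the K562 Input libraries. Groups were taken from the titles.

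Electrons enter the chain at complex I (NADH dehydrogenase) or complex II (succinate dehydrogenase), pass through complex III (cytochrome bc1) to complex IV (cytochrome c oxidase), and the proton gradient that results drives complex V (ATP synthase). Most subunits are nuclear, while a small set is read from mitochondrial DNA, so each complex except complex II depends on both genomes. Nuclear subunit genes are mostly short, broadly expressed and driven by the transcription factors NRF1, GABP (an ETS factor) and YY1. Methylated RNA immunoprecipitation compares the share of reads a gene has in the pull-down with its share in the Input, so its log2 IP/Input is a relative enrichment and not a fraction of methylated molecules.

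Gene counts per library ran from 29007088 to 34752646 in mESC Input and from 10477119 to 11865285 in K562 Input, but from 473398 to 592324 in mESC IP and from 93110 to 111286 in K562 IP. Expressed as CPM, a gene's counts divided by its library's total and scaled to 1e6, the limit that 3 counts allow lay between 0.0863 and 0.103 for Input but between 5.06 and 6.34 for the pull-down of mESC. For K562 the limits were 0.253 to 0.286 (Input) and 27.0 to 32.2 (IP). They cover counting error only. Had IP and Input shares been equal, the median tested member would have had 9.44 counts in an mESC IP library and 2.21 in a K562 IP library. The mESC markers fixed for the check were present (summed Input CPM 1554 to 1577, with 1 of 7, Sox2, at 0), and so were the K562 erythroid markers (629 to 651 CPM, with HBG2 at 0). Feeder fibroblast markers summed to 66.8 to 69.5 CPM in mESC Input. Of the 7 mESC markers K562 had only ESRRB among the genes tested, yet the list summed to 390 to 403 CPM in K562 Input. The erythroid list summed to 299 to 305 CPM in mESC Input, so neither sum was confined to its own line. The study calls its genome-wide replicates biological, but neither it nor the labels name separate cultures for these libraries, so every p-value here measures the spread between these libraries, which may be technical.

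Not every member could be measured. Deposited counts behaved as reads over whole gene bodies on the gene's own strand, with reads that fall on 2 genes dropped: of protein-coding genes wholly covered by another gene on the same strand, only 1.47% in mESC and 8.94% in K562 had over 10 Input counts, against 52.2% and 42.9% of those covered on the other strand alone. In mESC, 5 members had at most 10 Input counts. Cox4i1, the usual isoform of the regulatory subunit 4 of cytochrome c oxidase, and Ndufa13 were covered by other genes over at least 95% of their bodies and were at 0 in all 6 libraries, as was the muscle isoform Cox6a2, which was not covered. Cox8c had 1 Input and 0 IP counts. Cox8b had 1 Input count and 5, 2 and 4 IP counts. In K562, 20 members had at most 10 Input counts, and 17 of them were covered over at least 95% of the body. The 14 at 0 in all 6 K562 libraries were NDUFA7, NDUFA9, NDUFA11, NDUFB8, SDHD, UQCR11, COX6A1, COX6A2, COX8A, COX8C, ATP5MF, ATP5MF-PTCD1, ATP5MGL and ATP5PO. For the covered genes a count of 0 therefore cannot be read as absence of expression. SDHA and NDUFB5 were covered over at least 95% in the annotation used here and still had 4681 and 1293 Input counts.

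Input caRNA set the level of each gene before any pull-down. Per kilobase (kb) of gene body, the 80 mESC members with over 10 Input counts had a median of 2.60 CPM (range 0.0315 to 18.7), against 0.795 CPM for all 15641 protein-coding genes tested. Cox7c, a small subunit of cytochrome c oxidase, led with 18.7 ± 1.20 CPM per kb (SD, n = 3). Atp5b and Atp5a1, the catalytic beta and the alpha subunit of the F1 head of ATP synthase, followed with 14.1 ± 0.350 and 10.9 ± 0.600 CPM per kb, and the gaps between these 3 were larger than their SDs. Next came Atp5g2, 1 of 3 genes for the c-ring subunit, at 7.07 ± 0.326 CPM per kb, and the testis isoform Cox6b2 at 6.76 ± 0.339 CPM per kb, a pair whose ranges of mean ± SD met. Within the other complexes the highest levels were those of Ndufv1 (the NADH-binding subunit, 5.54 CPM per kb), Sdha (the flavoprotein of succinate dehydrogenase) and Uqcrc1 (a core protein of complex III). At the low end stood Cox7b2 (0.0315 CPM per kb), the long Atp5o gene model described later (0.0385), Cox4i2 (0.0571) and the muscle isoform Cox7a1 (0.481).

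In K562, the 69 members with over 10 Input counts had a median of 1.90 CPM per kb of gene body (range 0.00385 to 8.92), against 1.21 CPM for 11730 protein-coding genes. NDUFV1 led with 8.92 ± 0.0741 CPM per kb, followed by UQCRH, the hinge protein of complex III (7.94 ± 0.287), and ATP5F1B, the human name of the beta subunit (7.63 ± 0.274), and the last pair could not be separated by their SDs. COX5B came next with 5.60 ± 0.759 CPM per kb. SDHA had the highest level of complex II at 3.56 CPM per kb. Gene models and counting losses differ between the organisms, so these levels were not tested between lines.

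**Figure D1:**
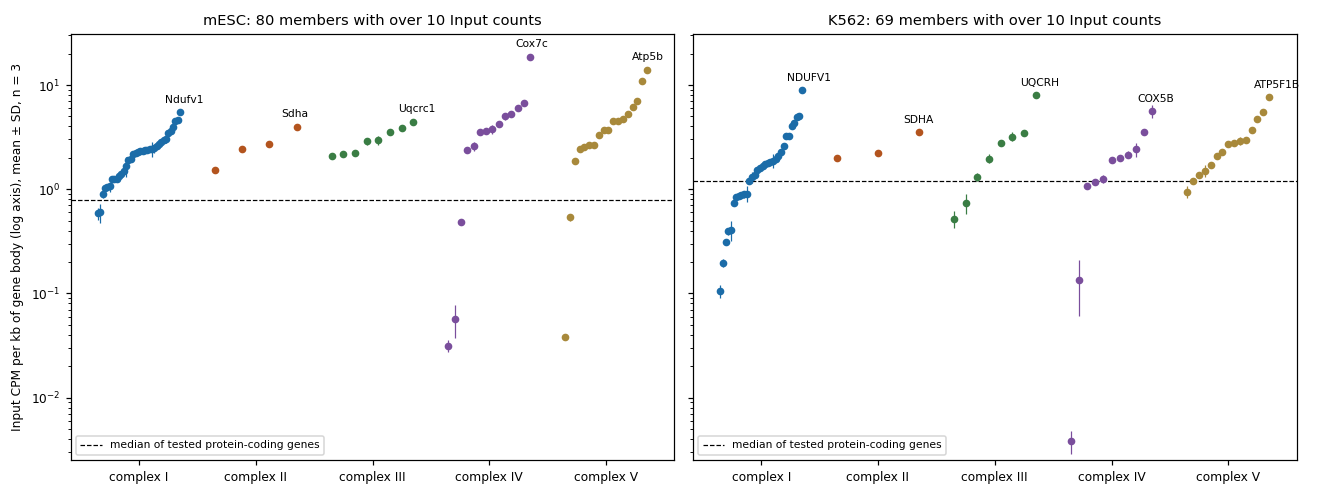
Input level of each member with over 10 Input counts (80 in mESC, 69 in K562) in CPM per kb of gene body on a log axis, as the mean ± SD of 3 libraries, grouped by complex, with a dashed line at the median of all protein-coding genes tested. Most members lie above the line in mESC (member median 2.60 against 0.795) and lie closer to it in K562 (1.90 against 1.21).

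Summed over all members, the pull-down moved in opposite directions in the 2 lines. Members held 0.259 ± 0.00126% of the gene counts in mESC Input and 0.158 ± 0.0117% in mESC IP (mean ± SD, n = 3 each), a ratio of 0.609. In K562 they held 0.250 ± 0.000583% in Input and 0.325 ± 0.0218% in IP, a ratio of 1.30. All 3 IP libraries lay below all 3 Input libraries in mESC and above them in K562. In mESC the ratio was 0.569 for complex I, 0.570 for complex II, 0.559 for complex III, 0.587 for complex IV and 0.707 for complex V. In K562 it was 1.11, 1.12, 1.30, 1.70 and 1.74 in the same order, so complexes IV and V had the largest ratios there. The mESC ratio of complex V includes the long Atp5o model, with 906 Input and 280 IP counts, which raises it. Complex V without that model was not computed, so its ratio cannot be ranked against the other complexes. Without the long Atp5o model, the mESC ratio over all members was 0.546.

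**Figure D2:**
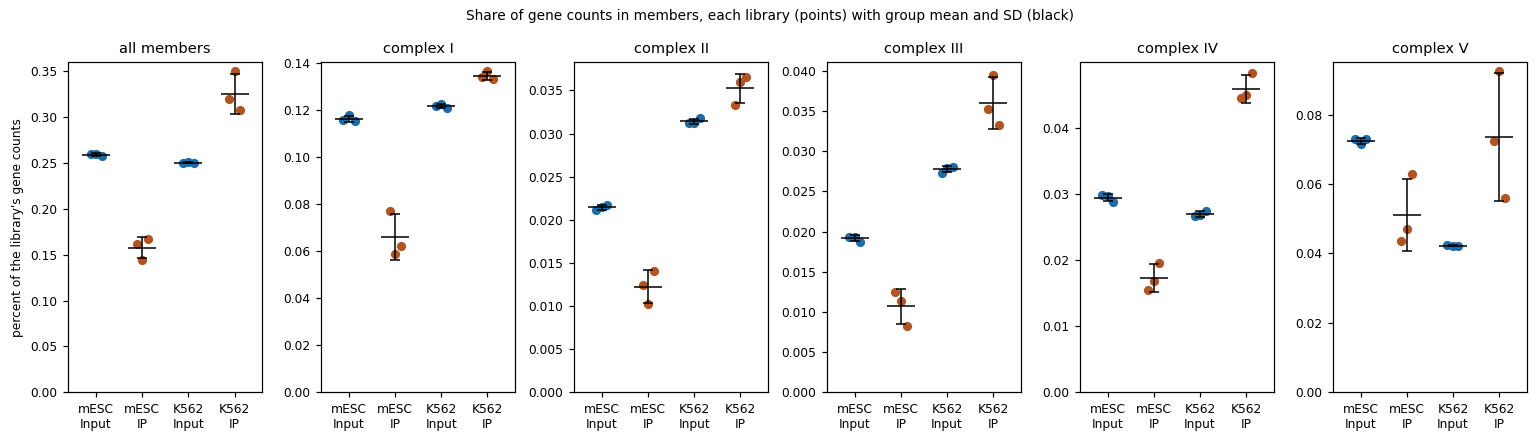
Percent of a library's gene counts held by all members and by each complex in the 12 libraries, as points with the mean ± SD of 3 libraries. In mESC the IP libraries lie below the Input libraries (0.158 against 0.259% for all members), and in K562 they lie above them (0.325 against 0.250%).

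Gene by gene in mESC, 66 of the 80 tested members were called lower in m5C-IP than in Input, 2 were called higher and 12 did not pass the test (edgeR quasi-likelihood test, Benjamini-Hochberg adjusted p under 0.05 over all 20244 genes tested). Among all genes tested, 42.1% were called lower and 39.9% higher. The median log2 IP/Input of the members was -1.87 (range -5.37 to 3.34), against -0.17 for all genes. Lower calls reached 29 of 36 in complex I, 4 of 4 in complex II, 8 of 8 in complex III, 9 of 14 in complex IV and 16 of 18 in complex V. These values follow the TMM scaling of edgeR, which corrected the mESC libraries by factors from 0.705 to 1.42. A lower call therefore need not mean a smaller share of reads, as for Sdhb, Uqcrb and Ndufa9 below. With scaling by library size alone the median of all genes lay at 0.80 and that of the members at -0.89, with 2 members called higher and 38 lower, and 9946 genes higher and 4861 lower in place of 8078 and 8513.

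**Figure D3:**
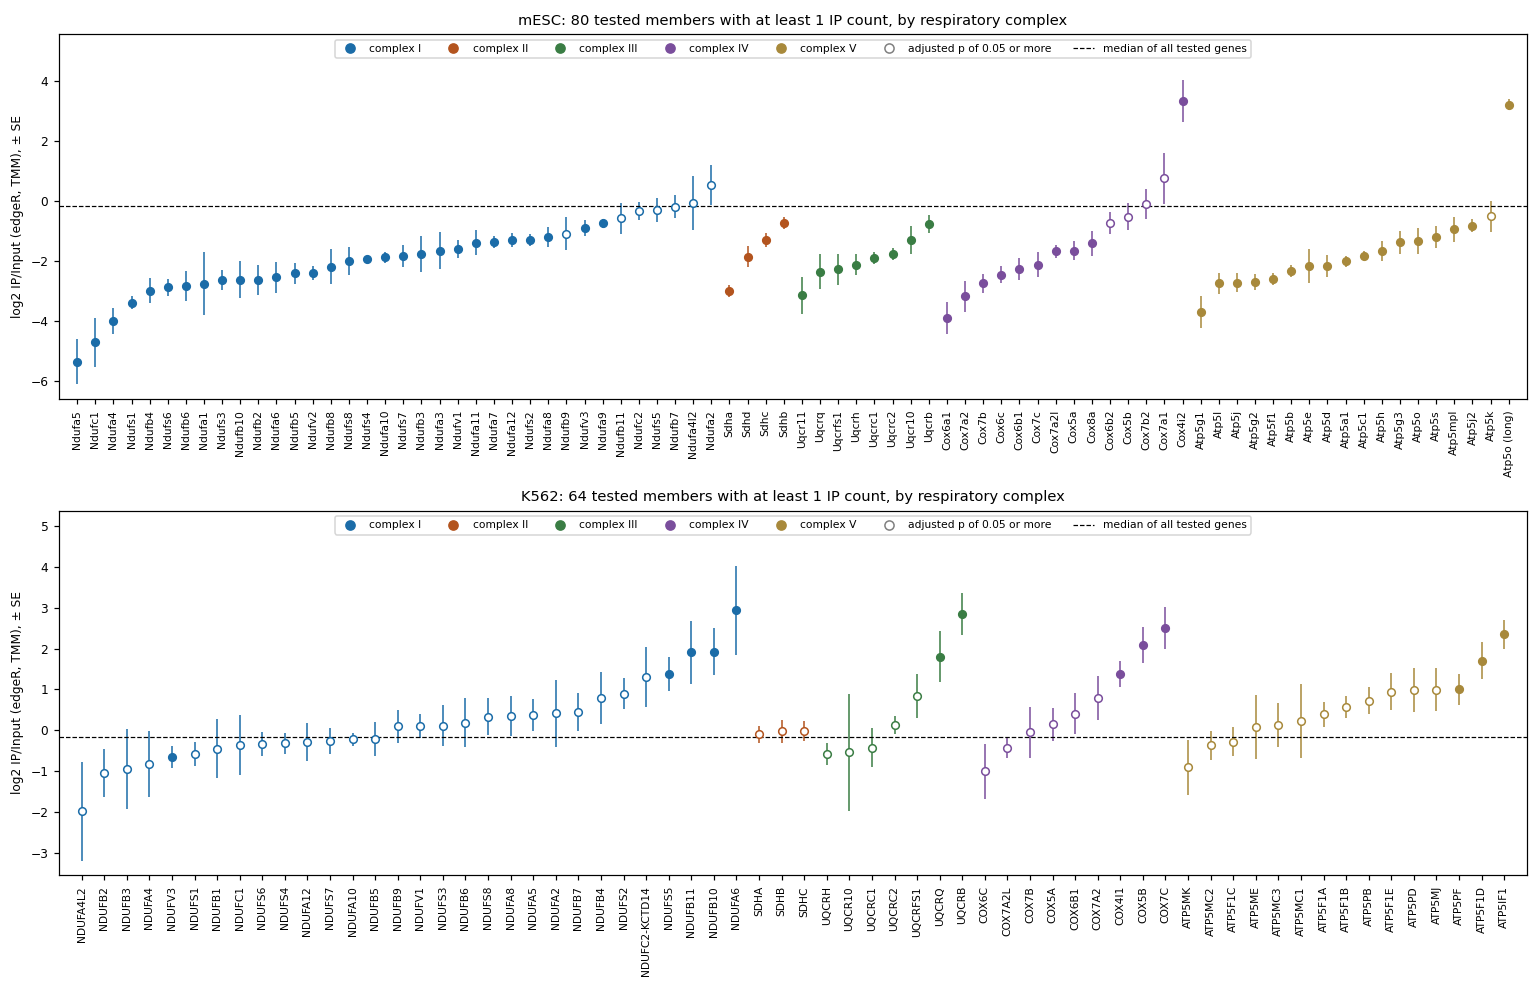
log2 IP/Input with its standard error for 80 mESC and 64 K562 members, by complex, with filled points for members that passed the test and a dashed line at the median of all genes tested (-0.17 in both lines). Most mESC members lie well below the line, while K562 members scatter around it (medians -1.87 and 0.13).

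Complex I takes electrons from NADH, and its catalytic core has 7 nuclear subunits. All 7 core genes were lower in mESC IP, with a median log2 IP/Input of -2.02, and 22 of 29 tested accessory genes were lower, with a median of -1.78. Ndufs1, the largest iron-sulfur subunit, had 3558, 4060 and 4059 Input counts and 5, 21 and 11 IP counts. Its CPM fell from 117 to 123 in Input to 10.6 to 35.7 in IP, and the groups did not overlap (log2 IP/Input -3.41 ± 0.22 SE, edgeR adjusted p = 6.62e-10). Ndufs4, an accessory subunit that is often mutated in Leigh syndrome, had the most counts of any member, 8712, 9955 and 10272 in Input and 86, 74 and 90 in IP. At this depth the estimate was the tightest of the members, -1.96 ± 0.10. Ndufv1, which binds NADH, had 852, 1021 and 1040 Input counts and 16, 8 and 8 IP counts (-1.61 ± 0.29), and IP replicate 1 (33.8 CPM) lay above all 3 Input libraries (29.4 to 30.9 CPM), against the direction of the call.

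The lowest values of all lay among accessory subunits with few IP reads. Ndufa5 had 399, 403 and 461 Input counts and 1, 0 and 0 IP counts, which gives an Input to IP ratio in CPM of 21.6 (95% exact binomial interval 3.87 to 853). Ndufc1 had 232, 286 and 293 Input counts and also 1, 0 and 0 IP counts, a ratio of 13.9 (2.48 to 548). With 21.6 and 13.9 IP counts in all expected at equal shares, both genes stood clear of the counting limit although their folds are wide open upward. Ndufa4, now assigned to complex IV although it carries a complex I name, had 723, 841 and 856 Input counts and 1, 2 and 2 IP counts (-4.02 ± 0.42). The 7 tested complex I genes that did not pass had between 124 and 1135 Input counts and included Ndufs5, Ndufb7, Ndufb9, Ndufb11 and Ndufc2. Ndufa2 rests on a single library: its IP counts were 23, 2 and 0, its log2 IP/Input was 0.51 (edgeR adjusted p = 0.479), and without IP replicate 1 it was -2.67 (edgeR adjusted p = 0.00779). The hypoxia-linked isoform Ndufa4l2 had 39, 47 and 38 Input counts and 0, 4 and 0 IP counts (-0.07, not called), and IP replicate 2 held all of its IP counts.

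Complex II has 4 subunits, all nuclear, and it also serves the TCA cycle. All 4 were lower in mESC IP. Sdha had 3189, 3680 and 3976 Input counts and 10, 20 and 15 IP counts, and its IP CPM (21.1 to 34.0) stood well below its Input CPM (110 to 114) in every library (-3.01 ± 0.19, edgeR adjusted p = 6.46e-10). Sdhd, a membrane anchor, had 492, 603 and 660 Input counts and 4, 4 and 8 IP counts (-1.88 ± 0.35). The other anchor, Sdhc, had 1015, 1174 and 1244 Input counts and 8, 18 and 20 IP counts (-1.32 ± 0.23). Sdhb, the iron-sulfur subunit, had 1441, 1659 and 1656 Input counts and 37, 18 and 40 IP counts. Its CPM was higher in IP replicates 1 and 3 (78.2 and 67.5) than in Input (47.7 to 50.2) and lower in replicate 2 (30.6), so its call (-0.75 ± 0.21, edgeR adjusted p = 0.00403) came from the TMM scaling, and with library size scaling it was 0.23. The call was also lost on the same genes without IP replicate 2 (-0.39, edgeR adjusted p = 0.0664) or without any single Input library (-0.75 to -0.72, edgeR adjusted p = 0.0600 to 0.0684).

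Complex III passes electrons from ubiquinol to cytochrome c. All 8 tested genes were lower in mESC IP, with a median log2 IP/Input of -2.02. Uqcr11 was the lowest with 261, 269 and 273 Input counts and 1, 2 and 0 IP counts, an Input to IP ratio in CPM of 4.57 (95% exact binomial interval 1.56 to 22.2). Uqcrh, the hinge protein, had 870, 874 and 999 Input counts and 11, 8 and 2 IP counts (-2.13 ± 0.35), and Uqcrc1 gave -1.91 ± 0.21. The smallest change was that of Uqcrb, the ubiquinone-binding protein, with 371, 490 and 475 Input counts and 7, 8 and 11 IP counts (-0.78 ± 0.31, edgeR adjusted p = 0.028), a call lost without IP replicate 1 (-0.70), IP replicate 2 (-0.65) or any single Input library (-0.84 to -0.73) on the same genes. Its CPM was not lower in the pull-down (13.6 to 18.6 in IP, 12.8 to 14.8 in Input), and with library size scaling its value turned to 0.19.

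Complex IV holds most of the tissue isoforms of the chain, and it had the most mixed calls, with 9 lower, 1 higher and 4 not called of 14 tested. Cox6a1, the widely expressed partner of Cox6a2, had 387, 484 and 502 Input counts and 1 count in each IP library, an Input to IP ratio in CPM of 7.82 (95% exact binomial interval 2.67 to 38.0). Cox7a2, the general counterpart of Cox7a1, had 513, 596 and 525 Input counts and 2, 4 and 0 IP counts (-3.19 ± 0.51), and its relative Cox7a2l, a supercomplex factor, gave -1.68 ± 0.22. Cox7a1 itself had 28, 29 and 33 Input counts and 4, 1 and 0 IP counts (0.75 ± 0.86, not called). Among the other pairs, Cox6b1 was lower (-2.28 ± 0.36) while the testis form Cox6b2 did not pass (-0.75 ± 0.36, edgeR adjusted p = 0.0631), and Cox7b was lower (-2.76 ± 0.33) while Cox7b2 did not pass (-0.11 ± 0.49). The isoforms that did not pass also had fewer Input counts (90 to 855) than their partners (1634 to 3442), and whether members of a pair differ was not tested.

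Cox7c, the member with the highest Input level, shows how far IP libraries of a group could differ. It had 1180, 1197 and 1405 Input counts and 0, 24 and 5 IP counts (-2.13 ± 0.41), so that IP replicate 2 alone reached the Input CPM. Cox5b was similar in kind, with 4, 1 and 25 IP counts over 382, 467 and 440 Input counts (-0.53 ± 0.46, not called), and without IP replicate 3 it passed at -2.44 (edgeR adjusted p = 7.43e-04). Cox4i2, the lung and hypoxia isoform of subunit 4, was called higher with 25, 15 and 19 Input counts and 1, 3 and 17 IP counts (3.34 ± 0.70, edgeR adjusted p = 3.72e-04). That call turned on IP replicate 3, without which it was 1.65 (edgeR adjusted p = 0.117).

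Complex V makes ATP. In mESC 16 of its 18 tested genes were lower, 1 was higher and 1, Atp5k, was not called. Atp5b had 2828, 3337 and 3556 Input counts and 23, 15 and 26 IP counts, and its IP CPM (25.5 to 48.6) lay below its Input CPM (97.5 to 102) in every library (-2.35 ± 0.19). Atp5c1, the central stalk subunit gamma, had 4389, 4975 and 5264 Input counts and 29, 38 and 71 IP counts (-1.83 ± 0.16). The 3 genes that encode the same mature c-ring subunit were all lower: Atp5g1, with 483, 511 and 596 Input counts and 0, 3 and 1 IP counts, at -3.73 ± 0.53, Atp5g2 at -2.72 ± 0.26 and Atp5g3 at -1.39 ± 0.38.

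The symbol Atp5o, which names the OSCP stalk subunit, belongs to 2 gene models on mouse chromosome 16, and they went opposite ways. The short model (ENSMUSG00000022956, 6474 bp) had 490, 561 and 630 Input counts and 8, 0 and 14 IP counts (-1.36 ± 0.43, edgeR adjusted p = 0.00866), a call lost without IP replicate 2 (-0.70, edgeR adjusted p = 0.0644) and, on the same genes, without any single Input library (-1.38 to -1.31). The long model (ENSMUSG00000116933, 242585 bp, chr16:91684398-91926982, minus strand in GRCm38) starts inside the short model and runs on through the neighbouring region. It had 269, 299 and 338 Input counts and 66, 84 and 130 IP counts, with CPM of 9.05 to 9.73 in Input and 139 to 219 in IP (3.20 ± 0.18, edgeR adjusted p = 1.67e-10). It is the member with the most IP counts in mESC and among the lowest in Input per kb of gene body.

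In mESC, genes with Input levels like those of the members had values close to theirs. Taking the middle range of member levels, 1.91 to 3.85 Input CPM per kb of gene body, 2696 other protein-coding genes had a median log2 IP/Input of -1.82 (quartiles -2.26 and -1.31) and 94.5% of them were lower, beside -1.99 and 36 lower of 40 members in that range. Gene-body length set the members further apart: 3175 other genes of 4251 to 13014 bp had a median of -0.85 with 49.2% lower, beside -2.16 for members. Where both ranges held, 652 other genes had a median of -1.59 with 89.3% lower, beside -2.16 and 21 lower of 22 members. Over the 80 members, log2 IP/Input had a Spearman rho of -0.06 with gene-body length, 0.32 with exonic GC content and -0.31 with Input CPM. These are descriptions across genes that share their libraries. Members were short, with a median body of 7284 bp against 23825 bp for all genes tested.

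**Figure D4:**
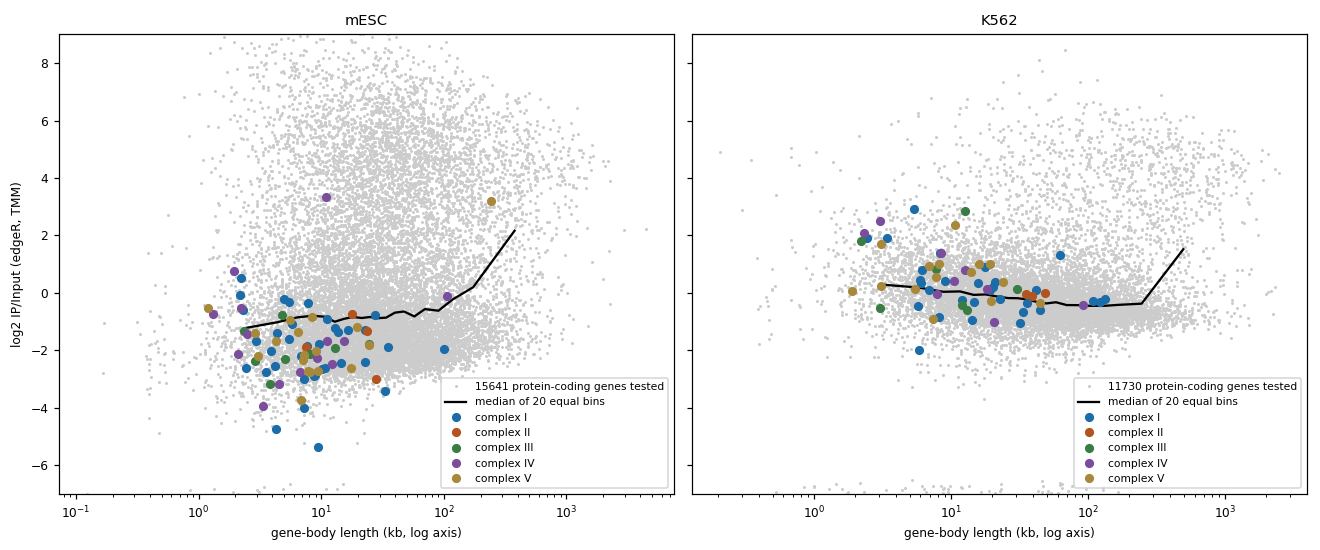
log2 IP/Input against gene-body length on a log axis for members (coloured) and all tested protein-coding genes (grey, 15641 in mESC and 11730 in K562), with a line through the medians of 20 length bins. Members sit at the short end in both lines, below the line in mESC and close to it or above it in K562.

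In K562 the same test called 12 of 66 members higher and 1 lower, and 53 did not pass. Background shares were 15.0% higher and 16.8% lower of the 14522 genes tested, so the share of members called higher, 18.2%, stood near the background, while the share called lower, 1.52%, stood under it. Among other protein-coding genes in the middle range of the members' body lengths, 3.85% were called lower, closer to the members. The median log2 IP/Input was 0.13 for members and -0.17 for all genes. Scaling by library size called 15 members higher and 0 lower, and 2456 genes higher and 1339 lower in place of 2181 and 2446. Without adjustment 16 members were higher and 4 lower at p under 0.05. A tested member had a median of 12 IP counts over the 3 libraries (range 0 to 87).

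Calls in K562 came from each complex but II. In complex I, NDUFB10 had 96, 90 and 84 Input counts and 4, 4 and 3 IP counts (1.92 ± 0.57), NDUFB11 gave 1.91 ± 0.77 and NDUFS5 gave 1.38 ± 0.41. NDUFA6 had 13, 13 and 10 Input counts and 1 count in each IP library, an Input to IP ratio in CPM of 0.111 (95% exact binomial interval 0.0350 to 0.562), and its call (edgeR adjusted p = 0.0303) was lost without any single IP library. The lower call was NDUFV3, an accessory subunit with 1266, 1299 and 1119 Input counts and 9, 8 and 8 IP counts (-0.66 ± 0.26, edgeR adjusted p = 0.045), and it was lost with DESeq2 (-0.53, DESeq2 adjusted p = 0.170), with RLE scaling and, on the same genes, without any single IP library (-0.70 to -0.58) or without Input replicate 1 (-0.67) or 2 (-0.63). Higher calls that turned on single IP libraries, on the same genes, were NDUFB11 (1.51 without IP replicate 1 and 1.43 without IP replicate 3) and NDUFS5 (1.27 without IP replicate 1), and NDUFB11 was also lost without Input replicate 2 (1.81) or 3 (1.94). NDUFA10, the member with the most K562 counts, had 3316, 3275 and 2837 in Input and 34, 31 and 22 in IP, with a log2 IP/Input of -0.21 ± 0.16 that did not pass.

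The other K562 calls lay in the later complexes. UQCRB of complex III had 63, 89 and 69 Input counts and 4, 4 and 9 IP counts, with all IP values (35.9 to 96.7 CPM) above all Input values (5.31 to 7.72 CPM; 2.84 ± 0.51, edgeR adjusted p = 1.13e-06), and UQCRQ gave 1.80 ± 0.63, a call lost without any single IP library (1.74 to 1.85 on the same genes). In complex IV, COX7C had 79, 76 and 91 Input counts and 7, 4 and 4 IP counts (2.51 ± 0.52), COX5B had 154, 130 and 155 and then 4, 6 and 10 (2.09 ± 0.44), and COX4I1 had 363, 329 and 310 and then 9, 10 and 9 (1.38 ± 0.32). In each of these genes the IP libraries stood above the Input libraries without overlap. In complex V, ATP5IF1, the inhibitor that stops ATP synthase from running backwards, had 169, 188 and 192 Input counts and 8, 12 and 10 IP counts (2.35 ± 0.36, edgeR adjusted p = 1.17e-08). Its mouse gene carries the symbol Atpif1 and so falls outside the name rule. ATP5F1D, the delta subunit, had 7, 9 and 1 IP counts (1.70 ± 0.45), and without IP replicate 2 it gave 1.24 on the same genes and did not pass (edgeR adjusted p = 0.126). ATP5PF, a stalk subunit, gave 1.00 ± 0.38, a call lost without IP replicate 1 (0.82), IP replicate 2 (0.97) or Input replicate 2 (0.96).

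Complex II did not move in K562 beyond its error. SDHA had 1637, 1581 and 1463 Input counts and 17, 15 and 15 IP counts (-0.09 ± 0.21), and SDHB and SDHC gave -0.03 ± 0.27 and -0.01 ± 0.24. None of the 3 passed. The highest members per exonic kb in the other complexes were also near 0 or did not pass: NDUFS4 at -0.32 ± 0.25, UQCRH at -0.59 ± 0.27, COX5A at 0.15 ± 0.40 and ATP5F1B at 0.57 ± 0.27.

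The lowest K562 members had too few IP reads for a fold. NDUFA1 had 102, 93 and 89 Input counts and NDUFA3 had 31, 38 and 22, with 0 in every IP library, where equal shares would have given 2.62 and 0.839 IP counts in all, both under the limit of 3 counts. NDUFA4L2 had 122, 147 and 102 Input counts and 0, 0 and 1 IP counts, an Input to IP ratio of 3.42 (95% exact binomial interval 0.610 to 135). NDUFB2 and COX6C gave -1.04 ± 0.59 and -1.01 ± 0.67 and did not pass. Isoforms with tissue-limited expression were at or near the limit in Input: COX4I2 had 1, 1 and 2 counts, COX7A1 had 4, 2 and 3, COX7B2 had 9, 9 and 5, and COX6B2 had 14, 5 and 6.

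K562 members had a higher median than genes of like level. In the middle range of their levels, 1.21 to 3.15 Input CPM per kb of gene body, 4037 other protein-coding genes had a median log2 IP/Input of -0.45. Of these, 3.84% were higher and 30.1% lower, beside a median of 0.29 for 32 members with 5 higher and 0 lower. For bodies of 6268 to 22446 bp, 2908 other genes had a median of -0.01 with 10.5% higher and 3.85% lower. The 32 members there had a median of 0.36 with 5 higher and 0 lower. Where both ranges held, 1085 others had -0.16 with 6.27% higher and 4.52% lower, beside 0.57 with 3 higher and 0 lower of 18 members. Spearman rho over the 66 members was -0.32 with gene-body length, 0.05 with GC content and -0.34 with Input CPM. Pseudogenes with near-identical sequence could take or lend reads. Of the 188 human pseudogenes named after 49 members, 4 named after SDHA held 8544 Input and 86 IP counts, more than SDHA itself with 4681 and 47, so the SDHA counts are uncertain. The other 184 held 58 Input and 6 IP counts in all. The median was 0.15 for the 41 tested members with such copies and 0.11 for the 25 without.

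Testing the contrast itself between lines, 28 of 79 members had a higher IP/Input in K562 than in mESC and 0 had a lower one (edgeR quasi-likelihood test of the interaction, adjusted over 14278 genes that share a symbol). Background shares were 16.4% higher and 14.5% lower. Other protein-coding genes of like Input level also had a lower median log2 IP/Input in mESC (-1.82) than in K562 (-0.45). The interaction was not set against such genes, so whether the difference is particular to the members was not tested. Without adjustment, 36 were higher and 0 lower at p under 0.05, and DESeq2 called 42 higher and 1 lower, the last being COX4I1, which has 0 counts in mESC. With RLE scaling, 18 members were higher and 0 lower, and all genes split into 1463 higher and 2672 lower in place of 2346 and 2067. The median difference was 1.32 on the log2 scale for members and 0.16 for all genes. Among the 63 members with over 10 Input counts in both lines, 27 were higher and the median was 1.59. By complex these were 10 of 30 in complex I, 1 of 3 in II, 4 of 7 in III, 4 of 10 in IV and 8 of 13 in V, with median differences, less that of all genes, of 0.91, 0.52, 1.11, 1.84 and 1.88. The interaction scaled all 12 libraries together, which put its values 0.63 on the log2 scale under the difference of the values of the 2 lines (median of 59 members). With each library scaled as in the fit of its own line, 42 members were higher and 0 lower, and all genes split into 4039 higher and 1559 lower, with a median of 0.78.

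**Figure D5:**
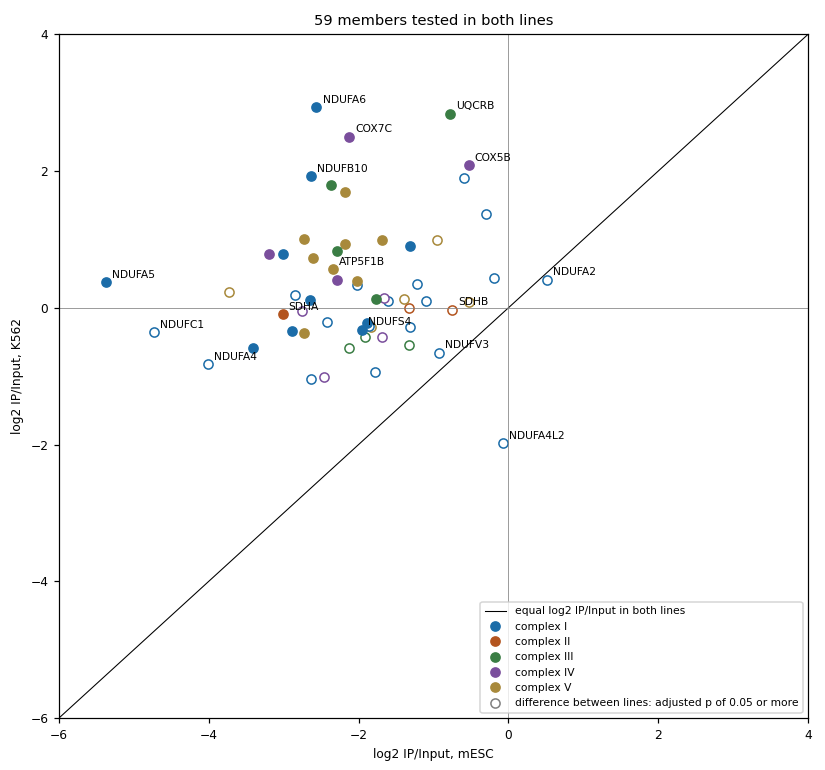
log2 IP/Input in K562 against that in mESC for 59 members tested in both lines with at least 1 K562 IP count, filled where the interaction passed the test, with the diagonal of equal values. In 57 of the 59 the value lies above the diagonal. The diagonal is not the middle of all genes: with each line on its own scale, all 14278 genes that share a symbol had a median difference of 0.78. How many of all genes lie above the diagonal was not counted.

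ATP5F1B, Atp5b in mouse, gave an interaction of 2.29 ± 0.42, or 2.91 with each line on its own scale, where its values were -2.35 in mESC and 0.57 in K562. SDHA gave 2.29 ± 0.35 (edgeR adjusted p = 8.03e-06), or 2.92 on the scales of -3.01 in mESC and -0.09 in K562, with the doubt about its K562 counts given above. NDUFS4, the deepest member in mESC, gave a smaller difference of 1.01 ± 0.36 (edgeR adjusted p = 0.0322), and NDUFA10 gave 1.04 ± 0.26. The NDUFS4 call was lost on the same genes without K562 IP replicate 1 (1.06, edgeR adjusted p = 0.0863) or 2 (0.74, edgeR adjusted p = 0.281). Larger values came with fewer counts: COX7C gave 4.01 ± 0.92, NDUFA6 4.88 ± 1.53 (not called without any single K562 IP library, 4.80 to 4.91 on the same genes) and NDUFA5, with 1 IP count in mESC and 15 in K562, 5.12 ± 1.06 (edgeR adjusted p = 3.87e-04). COX7A1 gave 4.27 ± 1.34, but on 9 K562 Input counts, and without K562 IP replicate 2 it gave 2.55 (edgeR adjusted p = 0.458). ATP5MG had the largest value, 6.55 ± 2.84, which did not pass and rests on 4 Input counts and 1 IP count of a K562 gene that is covered by another. SDHB (0.09 ± 0.41) and NDUFV3 (-0.36 ± 0.42) did not pass, nor did they with each line on its own scale (0.72 and 0.26), where the sign of NDUFV3 turned. The 5 at the low end, NDUFA1, NDUFA3, COX7B2, NDUFC2 and NDUFA4L2, had 0 or 1 K562 IP counts each, and none passed.

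Other genes of the same system were counted from lists. Genes read from mitochondrial DNA, 13 subunits of complexes I, III, IV and V, were the widest split: 13 of 13 were higher in K562 IP, with log2 IP/Input from 2.42 (MT-ND5) to 5.06 (MT-ATP6), while 7 of 7 tested were lower in mESC IP, with a median of -2.50. Their summed level went from 247 to 307 CPM in K562 Input to 5266 to 5392 CPM in IP. MT-CO1, the catalytic subunit of cytochrome c oxidase, had 397, 493 and 433 Input counts and 93, 93 and 90 IP counts in K562 (4.28 ± 0.14), and mt-Co1 had 7030, 7614 and 8251 and then 43, 56 and 58 in mESC (-2.29 ± 0.11).

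Assembly factors, which build the complexes without staying in them, were lower for 36 and higher for 2 (Cox19 and Lyrm7) of 46 tested in mESC, and lower for 8 and higher for 1 (COA3, 1.90) of 43 in K562. Genes of the TCA cycle and pyruvate dehydrogenase were lower for 17 of 17 in mESC and for 4 of 17 in K562, with medians of -1.84 and -0.52. Regulators of respiratory genes were lower for 13 of 14 in mESC, where Nrf1 gave -1.77 ± 0.10 and Yy1 -2.32 ± 0.15, and Ppargc1a alone was higher, with 26 Input and 56 IP counts. In K562 they were lower for 5 and higher for 1 (TFAM, 1.05) of 13. Of the 4 subunit genes outside the name rule, Ndufab1, Cyc1, Cycs and Atpif1, all were lower in mESC, and 2 of the 3 on the human list (CYC1 at 1.20 ± 0.42 and CYCS at 1.12 ± 0.38) were higher in K562.

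Peak lists were deposited for the mESC IP libraries, with 11146, 15404 and 15797 peaks and 1774 intervals shared by all 3. No member held a shared peak on its own strand (0 of 85), near the share of 1.16% among the 20237 tested genes placed in the annotation. With a peak in at least 2 libraries the count was still 0 (3.61% of genes), and with a peak in any library it was 3, Ndufa2, Ndufc2 and the long Atp5o model (22.9% of genes). Members had shorter bodies than all genes tested (median 7284 against 23825 bp), and the share among genes of like length was not counted. Counting either strand, Ndufa9, a quinone-site subunit of complex I, was the only member to overlap a shared peak (2.18% of genes). The peak lies at chr6:126823707-126823853 (GRCm38, plus strand, 147 bp) in an intron of Ndufa9, which is read from the minus strand, 1082 bp from the nearest exon toward the gene start. On the plus strand it falls in 1700018A23Rik. Its sequence on the plus strand is shown because it is the single shared peak at any member; it holds 37 C, and the capitals mark its 3 CG pairs.
Ndufa9 intron peak: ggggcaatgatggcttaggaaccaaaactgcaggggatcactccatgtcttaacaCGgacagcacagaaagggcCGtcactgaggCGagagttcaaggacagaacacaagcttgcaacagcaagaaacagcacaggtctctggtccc
By counts on its own strand, Ndufa9 had 1878, 2120 and 2262 Input counts and 34, 50 and 40 IP counts, and was called lower (-0.76 ± 0.15) although its CPM was higher in every IP library (67.5 to 85.0) than in Input (64.2 to 65.1), the scaling deciding the sign.

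Promoters of the members were searched for the letters of 3 regulators on both strands, in RefSeq windows of GRCm38.p6 that run from 250 bases before to 50 after the gene start. Whether these letters bear on IP/Input was not tested. Of 68 members matched, 13 (19.1%) held the NRF1 core GCGCATG, against 4.88% of 17491 protein-coding genes. The ETS letters CCGGAAG were in 15 (22.1%), against 11.9%, and the YY1 letters AAGATGG in 10 (14.7%), against 6.37%. At least 1 of the 3 was in 31 of 68, against 3670 of 17491. All 10 YY1 matches among the members reached past the annotated gene start, as did 426 of the 1114 among all genes, whereas 3 of 13 NRF1 and 6 of 15 ETS matches did. A match is a run of letters and not a shown site, and the others hold none of these letters in this window. The 2 promoters below, 250 bases that end before the gene start and read toward it, show the NRF1 and the ETS letters in capitals.
Ndufa6 promoter (chr15:82354292-82354541, minus strand): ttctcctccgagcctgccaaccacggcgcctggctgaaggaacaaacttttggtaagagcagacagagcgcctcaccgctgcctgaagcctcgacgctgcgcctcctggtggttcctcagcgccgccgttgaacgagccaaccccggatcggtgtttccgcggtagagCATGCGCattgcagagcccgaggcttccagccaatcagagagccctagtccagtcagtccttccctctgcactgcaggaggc
Sdhd promoter (chr9:50603850-50604099, minus strand): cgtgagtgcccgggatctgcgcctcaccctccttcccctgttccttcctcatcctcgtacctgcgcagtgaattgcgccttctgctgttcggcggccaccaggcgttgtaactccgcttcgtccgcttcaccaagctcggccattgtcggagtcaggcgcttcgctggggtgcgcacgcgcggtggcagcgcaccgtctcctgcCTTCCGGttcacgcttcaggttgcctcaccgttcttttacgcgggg
Ndufa6, an accessory subunit of the LYR family, had 376, 458 and 399 Input counts and 0, 5 and 2 IP counts in mESC (-2.56 ± 0.52), and Sdhd is described with complex II.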

How the data were processed

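Chromatin-associated RNA was fragmented, pulled down with an anti-m5C antibody and sequenced from a stranded kit, 3 Input and 3 IP libraries per line. Per the labels and the study's methods, the authors trimmed reads with Trimmomatic 0.39, aligned them with HISAT2 2.1.0 to the mouse or human genome (mm10 or hg38), processed them with SAMtools 1.16.1 and deposited raw counts per gene for all 12 libraries and MACS2 peak lists for the mESC IP libraries. The peak lists hold a position and a strand for each peak and no score, and were called per library and per strand. Positions, lengths and overlaps came from GENCODE M21 and v44, not the releases the authors used, and 99.9% and 99.1% of gene IDs matched. Summary lines of the count files held 19.0 to 19.3% of mESC Input, 71.4 to 71.7% of mESC IP, 26.0 to 26.2% of K562 Input and 60.7 to 61.4% of K562 IP records and stayed out of library sizes and tests. That the counting used gene bodies and strand was inferred from overlapping genes. Levels were therefore divided by gene-body length, where exonic length had been planned.

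Counts were fitted per line over all genes with edgeR 4.0.16 (R 4.3.3, limma 3.58.1, TMM scaling, filterByExpr, quasi-likelihood test, Benjamini-Hochberg adjusted p under 0.05), and the difference between lines as the interaction over genes that share a symbol. Fold changes are IP over Input on the log2 scale with their standard errors. In simulated data made from these libraries, 196, 196 and 186 of 200 changed genes were recovered for mESC, K562 and the interaction, with 3, 15 and 22 false calls. All of these genes were changed by the same large fold and lay above a floor of expected counts in every IP library. The median tested K562 member, with 2.21 expected counts per IP library, lay below that floor. This recovery therefore does not apply to such members. IP replicates differed over genes by more than sampling noise (chi-square per degree of freedom 3.80 to 3.89 in mESC and 1.17 to 1.21 in K562). Recovery and false calls at that spread were not tested. Alternatives were DESeq2 1.42.0, RLE and library size scaling, no filter, a replicate block, Input thinned to the IP depth, GC and length offsets and leaving out each library. Offsets by gene-body length, leaving libraries out on the same genes, an average of K562 Input replicates 1 and 2, scaling each line by its own fit in the interaction and members with mostly free gene bodies were added after seeing the data. Those K562 Input replicates differed over genes by less than sampling noise (chi-square per degree of freedom 0.912, with 0.918 and 1.03 for the other pairs), but differed over GC bins (28.8), so all 3 were kept. Same-numbered Input and IP libraries correlated at 0.0044 to 0.030 in their deviations, so numbers were not taken as pairs. Members and lists were chosen with earlier results of these data known. Named are the 5 highest and 5 lowest members per line and in the difference, the highest Input level per complex, all of complex II, tissue isoforms and members at 0; other members were named after their values were seen. The IgG control and spike-ins were not analysed here.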

Additional observations from a re-analysis of the deposited data

Results flagged for a closer look

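In 17 named members the difference between the lines (K562 minus mESC, log2 IP/Input) passed the edgeR interaction test. In complex I it was 5.12 for NDUFA5, 4.88 for NDUFA6, 3.93 for NDUFB10, 1.04 for NDUFA10 and 1.01 for NDUFS4, and in complex II it was 2.29 for SDHA. In complex III UQCRQ gave 3.54 and UQCRB 3.00. In complex IV it was 4.01 for COX7C, 4.27 for COX7A1, 3.35 for COX7A2, 2.06 for COX6B1 and 1.99 for COX5B. In complex V it was 3.25 for ATP5F1D, 3.11 for ATP5PF, 2.29 for ATP5F1B and 1.73 for ATP5MC2. These are interaction values with all libraries scaled together. SDHA has named pseudogenes with more K562 counts than its own, COX7A1 has 9 K562 Input counts, and NDUFA6 has 3 K562 IP counts. On the same genes, 7 of these calls were lost without single libraries. Without K562 IP replicate 2, COX7A1 was 2.55, COX7A2 2.63, COX5B 2.08 and NDUFS4 0.74. NDUFS4 was also lost without K562 IP replicate 1 (1.06), and COX5B without K562 IP replicate 3 (1.49), K562 Input replicate 2 (1.89) or mESC IP replicate 2 (1.41). NDUFA6 (4.80 to 4.91), COX6B1 (1.94 to 2.15) and ATP5MC2 (1.24 to 1.92) were lost without any single K562 IP library, and COX6B1 also without mESC IP replicate 3 (1.81) and ATP5MC2 without mESC IP replicate 2 (edgeR adjusted p = 0.0504). The lines also differ in organism, culture medium, depth, gene models and the reads lost to overlapping genes, and these cannot be told apart from the line.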

How the results depend on the processing

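The direction of the members' medians held in every alternative run: relative to all genes it was below 0 in mESC, and above 0 in K562 and in the difference between lines. In mESC, the relative median of -1.69 became -1.48 with a gene-body length offset, -1.53 with gene-body length and GC offsets together, -2.79 with an exonic length offset, -2.89 with no filter and -0.81 with Input thinned to the IP depth, and ran from -1.72 to -1.02 without single libraries. Lower calls, 66, were 38 with library size scaling and 18 with thinned Input, and 27 to 65 without single libraries. Higher calls, 2, were 4 with gene-body length and GC offsets, 1 with an exonic length offset, 1 with thinned Input and 1 to 2 without single libraries, Cox4i2 being lost without IP replicate 3. Without any of the Input libraries 43 or 44 members passed the filter in place of 80; on the genes of the whole fit 59 to 61 were lower.

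In K562, the relative median of 0.30 was 0.11 with an exonic length offset and 0.51 with no filter. Higher calls, 12, were 0 with thinned Input, where 7 members could be tested, 3 with Input replicates 1 and 2 averaged, where 11 could be, and 3 to 10 without single libraries (7 without IP replicate 1, 3 without any Input library, on 11 members). The 1 lower call became 0 with DESeq2, RLE or library size scaling, the replicate block, both gene-body length offsets, averaged Input and thinned Input, 2 with an exonic length offset, 7 with no filter and 0 to 1 without single libraries.

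Between lines, higher calls, 28, were 18 with RLE scaling, 43 with an exonic length offset, 6 with thinned Input and 13 to 31 without single libraries, with 15 without K562 IP replicate 2 (16 on the genes of the whole fit) and 13 to 15 without any Input library. They were 42 with each line on its own scale. Lower calls were 0, or 1 with DESeq2. The relative median difference of 1.16 was 1.64 with DESeq2, 2.09 with an exonic length offset, 1.34 with a GC offset, 0.77 with thinned Input, 1.49 for members with mostly free gene bodies, and 1.18 to 1.39 without single libraries, or 1.35 without K562 IP replicate 1 and 1.38 without mESC IP replicate 3 on the genes of the whole fit. Members with a shared peak, 0, were 3 with a peak in any library and 1 on either strand.

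With the replicate block, 2 members were higher and 63 lower in mESC, 9 and 0 in K562 and 29 and 0 between lines. Every Input library correlated best with its own number, a hint from the data and not from the design. Named values that changed sign and passed the test under either setting were Sdhb (0.081 with a gene-body length offset, 0.23 with library size scaling, 0.39 with thinned Input), Ndufa2 (-2.67 to 1.17 without single libraries, -2.62 without IP replicate 1 on the genes of the whole fit), Ndufa9 (0.46 with gene-body length and GC offsets, 0.21 with library size scaling, 0.66 with thinned Input), Uqcrb (0.53, 0.19 and 0.17 in the same order) and Cox7b2 (1.33 with gene-body length and GC offsets). The cause of these changes was not tested, other than the smaller number of genes tested where it is given. Of the other values of named members within a line, 1253 kept direction and call, 135 lost the call, 37 gained it and 136 changed sign without passing under either setting, among them SDHC (12), SDHA (11) and SDHB (9) in K562 and Ndufa4l2 and Ndufb7 (10 each) in mESC. Of their differences between lines 1168 kept direction and call, 88 lost the call, 40 gained it and 35 changed sign without passing, SDHB 14 times. With 2.62 and 0.839 IP counts at equal shares, a lower share of NDUFA1 or NDUFA3 was not detectable in K562.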

Other observations

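Cox8b, the muscle and brown fat isoform of subunit 8, had 0, 0 and 1 counts in mESC Input and 5, 2 and 4 in mESC IP. It was not tested because it did not pass the filter on low counts, and Input of 1 count gives no usable fold. Among genes outside the members, Ppargc1a, a coactivator of respiratory genes, had 5, 8 and 13 Input counts and 34, 5 and 17 IP counts (6.05 ± 0.68, edgeR adjusted p = 5.47e-07), and Lyrm7, an assembly factor of complex III, had 94, 126 and 103 and then 43, 24 and 18 (3.00 ± 0.36). Genes of low Input level with high IP counts also included marker genes of lymphoid cells, whose summed level was 3.30 to 4.60 CPM in mESC Input and 105 to 145 CPM in IP.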
